A study of Mus musculus with 28 samples.

Results

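Genes that mark the tenocyte, the resident fibroblast of tendon, were followed in tail tendon fascicles of mice that carry a *Fosl2* transgene and of their WT controls. The 5 genes *Scx*, *Mkx*, *Tnmd*, *Thbs4* and *Comp* were taken as a fixed list of tenocyte identity genes, and all 5 were found by symbol among the 25719 genes of the count tables. The rule that picks them uses no measured value, but the list was chosen with earlier results of these data known. Bulk RNA-sequencing had been done on tissue homogenate with 1 library per mouse, from 7 WT Early, 8 Fosl2(Tg) Early, 6 WT Established and 7 Fosl2(Tg) Established mice. The labels give the strain as C57BL/6 throughout. Fosl2(Tg) mice bear extra mouse *Fosl2* at an untargeted site, and its expression is set by H2Kb, an MHC class I promoter that is not specific to tendon cells. An eGFP reporter is made from the same transgene. WT controls came from the same breeding and lacked the vector. Early mice were 6 to 8 weeks old and Established mice older than 14 weeks. The Early cohorts held 15 males and no females. The Established cohorts held females apart from replicate 5 of each genotype, which was male, so stage and sex cannot be told apart.

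Tenocytes arise from progenitors that switch on *Scx*, which encodes scleraxis, a basic helix-loop-helix transcription factor that pairs with E proteins on E-box sequences. Mohawk, the homeodomain factor encoded by *Mkx*, acts in the later maturation of collagen fibrils. *Tnmd* encodes tenomodulin, a type II membrane protein that depends on scleraxis in developing tendon and is the usual marker of the mature tenocyte. *Thbs4* and *Comp* (thrombospondin 5) encode secreted pentameric thrombospondins that bind collagen and help to organise the matrix of tendon and other load-bearing tissue.

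In GRCm39 all 5 are protein-coding genes. *Scx* (ENSMUSG00000034161) lies on the plus strand of chromosome 15 from 76341563 to 76344281, *Tnmd* (ENSMUSG00000031250) on the plus strand of chromosome X from 132751720 to 132766326, and *Comp* (ENSMUSG00000031849) on the plus strand of chromosome 8 from 70826192 to 70834716. *Mkx* (ENSMUSG00000061013) lies on the minus strand of chromosome 18 from 6931133 to 7005516, and *Thbs4* (ENSMUSG00000021702) on the minus strand of chromosome 13 from 92888095 to 92931501. Their exons in GENCODE release M39 add up to 2719 bases for *Scx*, 9771 for *Mkx*, 1464 for *Tnmd*, 3689 for *Thbs4* and 2983 for *Comp*.

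Library totals ranged from 9645598 to 66894396 counted reads, and each member had at least 92 reads in every library. *Fosl2* itself was at 58.8 to 136 CPM, reads of a gene relative to the total of its library, in WT Early, 63.4 to 156 in Fosl2(Tg) Early, 78.1 to 169 in WT Established and 121 to 160 in Fosl2(Tg) Established mice. The genotypes overlapped at both stages, and the *Fosl2* difference did not pass the test in the Early (log2 fold change 0.20 ± 0.24 SE, FDR = 0.918) or the Established stage (0.38 ± 0.15, FDR = 0.141), so *Fosl2* counts do not check the genotype labels. The totals were adjusted by TMM scaling, an edgeR step that corrects for a few abundant genes taking up reads, with factors of 1.19 to 1.45 in Fosl2(Tg) Established against 1.03 to 1.10 in WT Established libraries. A gene was called when the false discovery rate (FDR) of edgeR's quasi-likelihood test was at most 0.05 over all genes tested. A bulk tissue cannot tell fewer tenocytes from less RNA per tenocyte, and this holds for every value given here.

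The members spanned a wide range of abundance, which was compared between genes as mean CPM per kilobase of exon. In WT Early tendon *Tnmd* stood at 1417 ± 575 (SD, n = 7) and *Thbs4* at 1357 ± 279 CPM per kilobase, and the ranges of these secreted or membrane products overlapped. *Comp* followed at 316 ± 129 and did not overlap with *Thbs4*. The transcription factors were far lower, with *Scx* at 41.5 ± 18.0 and *Mkx* at 32.03 ± 2.72 CPM per kilobase, and overlapped with each other. In Fosl2(Tg) Established tendon the order of means was *Thbs4* (798 ± 531, n = 7), *Comp* (368 ± 195), *Tnmd* (144 ± 121), *Mkx* (19.7 ± 6.15) and *Scx* (12.6 ± 6.23). In this group the ranges of every pair of neighbours in the order overlapped.

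At the Early stage none of the 5 members was called between genotypes by edgeR, beside 6 of the 15138 genes tested (0.0396%). None had an unadjusted p under 0.05 with edgeR, beside 917 of all genes, and none was called by DESeq2, beside 23. With the replicate number as a block 11 genes in place of 6 were called, again with 0 members. *Scx* ranged from 63.1 to 203 CPM in WT (median 95.7) and from 74.1 to 187 in Fosl2(Tg) mice (median 118). *Mkx* lay between 263 and 345 CPM in WT (median 321) and between 267 and 476 in Fosl2(Tg) mice (median 356). *Tnmd* lay between 1289.9 and 3347 CPM in WT (median 1815) and between 1490.3 and 2505 in Fosl2(Tg) mice (median 1913). For all 3 genes the WT and Fosl2(Tg) ranges overlapped. *Thbs4* gave 3981 to 6746 CPM in WT (median 4631) and 3652 to 5944 in Fosl2(Tg) mice (median 5146). *Comp* gave 525 to 1408 CPM in WT (median 776) and 580.3 to 1317 in Fosl2(Tg) mice (median 765). The log2 fold changes, Fosl2(Tg) minus WT, were 0.13 ± 0.24 (SE) for *Scx*, 0.20 ± 0.11 for *Mkx*, −0.09 ± 0.21 for *Tnmd*, 0.04 ± 0.15 for *Thbs4* and −0.26 ± 0.24 for *Comp*, with FDR from 0.836 to 0.973. The ranges of *Thbs4* and *Comp* overlapped as well. The 95% intervals still allowed a change between −0.53 and 0.35 for *Tnmd* and between −0.38 and 0.64 for *Scx*. A test that did not call these genes therefore leaves differences of that size possible.

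**Figure D1:**
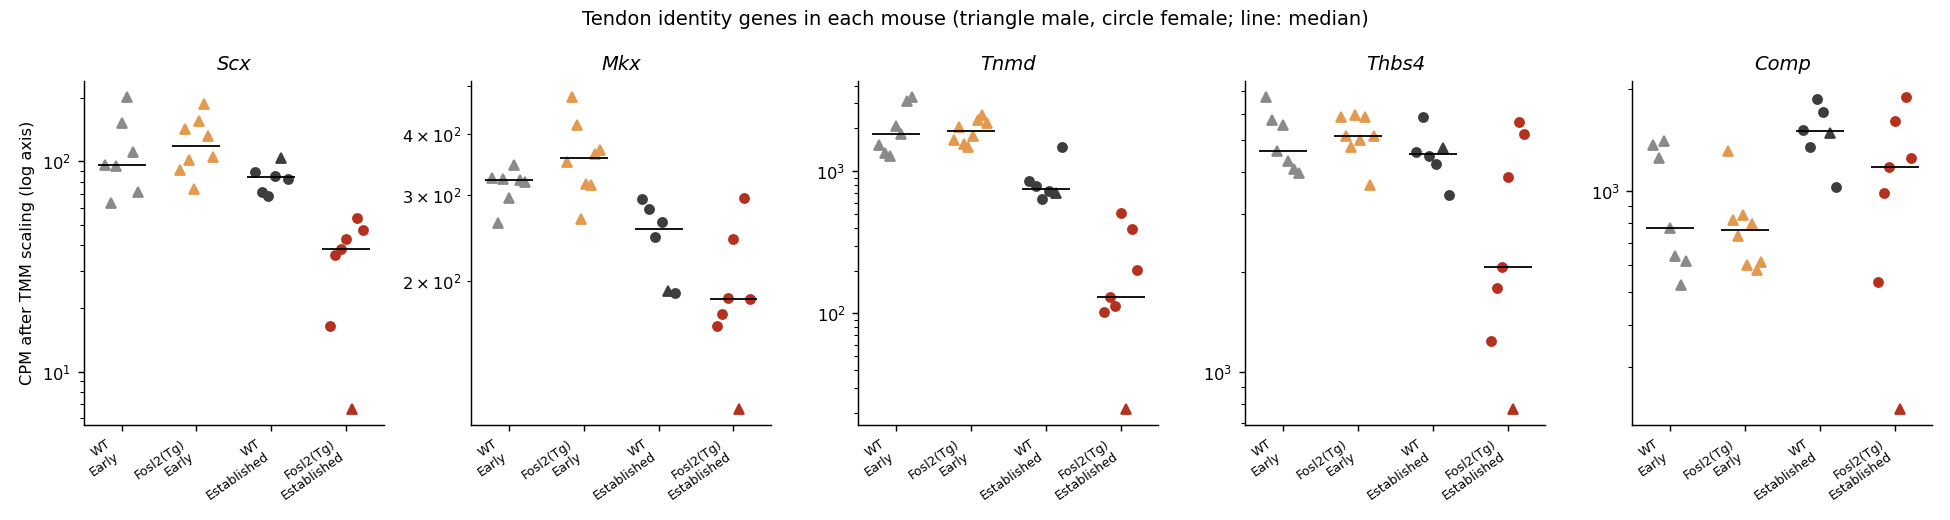
CPM after TMM scaling (log axis) of each tendon identity gene in every mouse, grouped by genotype and stage, with a line at the group median. The Fosl2(Tg) Established mice lie below all WT Established mice for *Scx* and *Tnmd* and overlap with them for *Mkx*, *Thbs4* and *Comp*, and the only male of that group (triangle) is its lowest mouse in all 5 panels.

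At the Established stage *Scx* and *Tnmd* were lower in Fosl2(Tg) tendon, and the fold changes of the other 3 members were also negative without passing the test. Of all 15862 genes tested, 6.51% were called, 3.37% were called lower, and 2.33% had every Fosl2(Tg) mouse below every WT mouse. The calls over all genes were 534 lower and 498 higher with TMM scaling and 308 lower and 7236 higher with plain library totals, where the median of all genes stood at 0.33. Under library totals *Scx* (−0.98, FDR = 0.0236) and *Tnmd* (−1.77, FDR = 0.0114) were called as well. The members' count was 2 of 5 called lower, the same 2 without overlap between the genotypes.

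*Tnmd*, the mature tenocyte marker, ranged from 635 to 1476 CPM in WT Established mice (median 754) and from 21.1 to 512 in Fosl2(Tg) Established mice (median 129). The groups did not overlap. The log2 fold change was −2.03 ± 0.53 (SE, 95% interval −3.17 to −0.89, FDR = 0.0386), a level 4.09-fold lower in Fosl2(Tg) tendon. Of the 15862 genes, 72 had a more negative fold change.

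*Scx*, the regulator of tendon progenitors, ranged from 68.6 to 104 CPM in WT (median 83.9) and from 6.64 to 54.01 in Fosl2(Tg) Established mice (median 38.1), again without overlap. The log2 fold change was −1.27 ± 0.34 (95% interval −2.01 to −0.54, FDR = 0.0444), a level 2.42-fold lower. A more negative fold change was found for 345 genes. *Scx* lies inside *Bop1*, a ribosome biogenesis gene on the opposite strand (76337155 to 76362079). The exons share 0 bases, yet reads from *Bop1* introns could be counted for *Scx* if strand was not used, which the sources used here do not state. *Bop1* itself was at 33.0 to 42.9 CPM in WT and 19.6 to 42.2 CPM in Fosl2(Tg) Established mice and was not called (log2 fold change −0.23 ± 0.14, FDR = 0.313).

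Both FDR values of this edgeR fit lay close to the threshold. With each Established mouse left out in turn, *Scx* was called in 4 of 13 fits and *Tnmd* in 4 of 13, with FDR up to 0.0825 and 0.0788 and fold changes between −1.41 and −1.10 and between −2.43 and −1.81. The *Scx* call was lost without Fosl2(Tg) replicates 1, 2 or 3 or any WT mouse, and the *Tnmd* call without Fosl2(Tg) replicates 1, 2, 3 or 7 or any WT mouse but replicate 3. Without Fosl2(Tg) replicate 5, the lowest mouse, both were called (*Scx* −1.10, FDR = 0.0158, *Tnmd* −1.83, FDR = 0.0246), and likewise with females alone (−1.02, FDR = 0.0334, and −1.88, FDR = 0.0382). Both calls were lost with library number as a covariate (*Scx* −1.22, FDR = 0.0641, *Tnmd* −1.94, FDR = 0.0641). The *Scx* call was also lost without a filter on low counts (FDR = 0.0523) and with the replicate block (FDR = 0.0643). The FDR was smaller with DESeq2 (*Scx* 0.00342, *Tnmd* 0.00335) and with all 28 libraries in 1 edgeR fit (0.0116 and 0.00309).

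The sequences upstream of *Scx* and *Tnmd*, the members called lower, were read from GRCm39 to show what lies before their start sites. Each window holds the 250 bases before the start of the canonical transcript of GENCODE release M39, on the plus strand, chr15:76341313-76341562 for *Scx* and chrX:132751470-132751719 for *Tnmd*. Capitals mark E-box letters (CANNTG, both strands), the kind of site scleraxis and its partners bind, and AP-1 letters (TGANTCA, both strands), the kind of site bound by the family to which Fosl2 belongs.
Scx: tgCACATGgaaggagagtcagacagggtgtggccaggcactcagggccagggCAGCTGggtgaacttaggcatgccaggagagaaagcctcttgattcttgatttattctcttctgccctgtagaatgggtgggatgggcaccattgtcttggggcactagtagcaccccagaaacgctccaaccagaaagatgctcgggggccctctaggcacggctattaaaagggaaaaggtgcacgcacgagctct
Tnmd: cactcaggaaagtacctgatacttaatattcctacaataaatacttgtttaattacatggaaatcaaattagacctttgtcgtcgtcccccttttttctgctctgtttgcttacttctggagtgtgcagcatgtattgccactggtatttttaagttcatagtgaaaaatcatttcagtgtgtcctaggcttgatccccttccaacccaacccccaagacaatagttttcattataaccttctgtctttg
The *Scx* window held 2 E-box matches, CACATG and CAGCTG, which begin 248 and 198 bases before the start. The *Tnmd* window held none. No AP-1 letters were in the windows of *Scx*, *Tnmd*, *Thbs4* or *Comp*, and *Thbs4* and *Comp* held 1 E-box match each. The window of *Mkx* was not read. Of 14246 windows of the same length before protein-coding genes tested at the Established stage, 60.8% held an E-box match and 4.79% an AP-1 match. GC content was 55.2% in the *Scx* window and 38% in that of *Tnmd*.

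*Mkx*, the maturation factor, ranged from 189 to 293 CPM in WT Established mice (median 255) and from 109 to 295 CPM in Fosl2(Tg) mice (median 183). Its log2 fold change was −0.34 ± 0.19 (95% interval −0.75 to 0.08, FDR = 0.281), and the highest of the Established mice was a Fosl2(Tg) mouse. *Thbs4* ranged from 3418 to 5863 CPM in WT mice (median 4522) and from 772 to 5648 CPM in Fosl2(Tg) mice (median 2072). Its fold change was −0.62 ± 0.40 (−1.48 to 0.24, FDR = 0.333). *Comp* ranged from 1026 to 1880.2 CPM in WT mice (median 1501) and from 224 to 1904 CPM in Fosl2(Tg) mice (median 1178). Its fold change was −0.44 ± 0.36 (−1.22 to 0.34, FDR = 0.452). Without Fosl2(Tg) replicate 5 *Comp* was at −0.26 and with females only at −0.27. With the replicate block *Comp* was at −0.74 and *Thbs4* at −1.14, and with library totals *Mkx*, *Thbs4* and *Comp* were at −0.027, −0.33 and −0.15, none of them called. For these 3 genes the Fosl2(Tg) mice spread from well under the WT range up into it. More negative fold changes were found for 6.94% of genes tested in the case of *Thbs4*, 11.1% for *Comp* and 15.7% for *Mkx*.

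**Figure D2:**
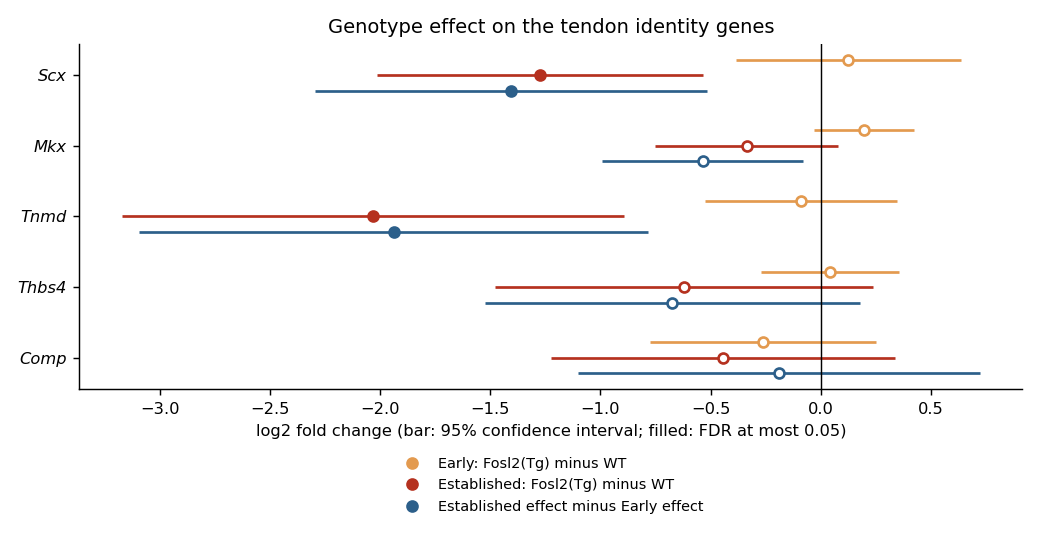
Log2 fold changes of the 5 genes (points) with 95% confidence intervals (bars) for Fosl2(Tg) minus WT in the Early and Established stages, and for the Established minus the Early effect, with filled points for FDR of at most 0.05. *Scx* and *Tnmd* are filled in the Established stage (−1.27 and −2.03) and for the difference between stages (−1.41 and −1.94), and no gene is filled in the Early stage.

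Whether the genotype effect differed between stages was tested with an interaction term over all 28 mice. The effect was more negative in the Established stage for *Scx* (−1.41 ± 0.43, FDR = 0.0457) and *Tnmd* (−1.94 ± 0.56, FDR = 0.0358), while 7.43% of 16082 genes were called in this test. These calls were 644 lower and 551 higher, and 254 lower and 7837 higher with library totals, where both genes were called again. For *Mkx* (−0.54 ± 0.22, FDR = 0.131), *Thbs4* (−0.67 ± 0.42, FDR = 0.312) and *Comp* (−0.19 ± 0.44, FDR = 0.828) a difference was not shown. The *Comp* estimate ran from −0.64 with the muscle covariate to 0.29 with library totals, where *Mkx* and *Thbs4* were at −0.042 and −0.21. With each of the 28 mice left out in turn, *Scx* was called in 11 fits (FDR up to 0.0762) and *Tnmd* in 20 (FDR up to 0.0693). With the replicate number as a block *Scx* was not called (−1.47, FDR = 0.0612), whereas *Tnmd* was (−2.33, FDR = 0.0143). Without the Established males *Scx* was not called (−1.16, FDR = 0.0648), whereas *Tnmd* was (−1.81, FDR = 0.0282). With the muscle level as a covariate *Scx* was not called either (−1.30, FDR = 0.0688), whereas *Tnmd* (FDR = 0.0402) and *Mkx* (FDR = 0.0408) were.

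Within a genotype, the Established and Early cohorts differ in age and sex together. In Fosl2(Tg) mice 4 members were called lower in the Established than in the Early cohort, beside 22% of all 16082 genes (3534 lower and 4151 higher, and 617 and 12219 with library totals). These were *Tnmd* (−3.21 ± 0.42, FDR = 1.48e-06), *Scx* (−1.84 ± 0.31, FDR = 2.73e-05), *Mkx* (−0.90 ± 0.15, FDR = 3.63e-05) and *Thbs4* (−0.81 ± 0.29, FDR = 0.0215). *Comp* had a positive fold change that did not pass the test (0.48 ± 0.30, FDR = 0.193). The calls for *Mkx*, *Thbs4* and *Comp* depended on scaling. With library totals in place of TMM scaling their fold changes were −0.18 (FDR = 0.246) and −0.12 (FDR = 0.685), while the median of all genes stood at 0.76. Relative to that median they were −0.94 and −0.88. *Comp* was called higher with library totals (1.16, FDR = 0.0012, and 0.40 relative to the median) and with females only in the Established cohort (0.63, FDR = 0.0445), and stood at 0.074 (FDR = 0.86) with the muscle covariate. *Scx* fell by 1.13 on the log2 scale with library totals (FDR = 0.000382).

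In WT mice no member was called between cohorts by edgeR, beside 5.81% of all genes, while 3 had an unadjusted p under 0.05 and 1, *Tnmd*, was called by DESeq2 (FDR = 0.0257). Over all genes 560 were called lower and 375 higher, and 212 and 2162 with library totals. *Tnmd* was nearest, at −1.27 ± 0.42 (FDR = 0.0693), and all but the highest WT Established mouse lay below every WT Early mouse. The other fold changes were −0.44 ± 0.32 for *Scx*, −0.36 ± 0.16 for *Mkx*, −0.14 ± 0.30 for *Thbs4* and 0.67 ± 0.32 for *Comp*. By mean CPM *Tnmd* stood in the order WT Early (2075 ± 841), Fosl2(Tg) Early (1942 ± 374), WT Established (863 ± 310) and Fosl2(Tg) Established (211 ± 177) CPM. Of these neighbours WT and Fosl2(Tg) Early did not differ by the test, WT and Fosl2(Tg) Established did, and the step between Fosl2(Tg) Early and WT Established was not tested. *Comp* had another order, highest in WT Established (1496 ± 296), then Fosl2(Tg) Established (1098 ± 582), WT Early (942 ± 386) and Fosl2(Tg) Early (788 ± 238).

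Ratios between members do not depend on how libraries are scaled, so the balance of the 5 genes was compared mouse by mouse. At the Established stage the log2 ratio of *Tnmd* to *Comp* was −0.83 ± 0.72 (SD, n = 6) in WT and −2.66 ± 0.63 (n = 7) in Fosl2(Tg) mice, a difference of −1.84. The log2 ratio of *Tnmd* to *Thbs4* was lower by 1.59 on the log2 scale (−2.44 ± 0.63 against −4.03 ± 0.75), and that of *Mkx* to *Tnmd* was higher by 2.14 (−1.79 ± 0.61 against 0.36 ± 1.09). None of these 3 ratios overlapped between genotypes, and each had p = 0.00117 over the 1716 groupings of the mice (exact permutation test, two-sided, adjusted p = 0.00291 over the 10 pairs). Within the same libraries *Tnmd* stood lower relative to both thrombospondins and to *Mkx*. All 3 ratios hold *Tnmd*, already without overlap on its own, and the ratios were added after seeing the data. They are therefore not separate from the *Tnmd* result, and the share of other gene pairs without overlap was not computed.

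*Scx* also stood lower against *Comp* (difference −0.84, adjusted p = 0.00291) and against *Mkx* (−1.15, adjusted p = 0.0035, exact permutation tests), although the ranges overlapped. Against *Tnmd* it stood higher (difference 1.00, adjusted p = 0.034, exact permutation test). Its ratio to *Thbs4* did not pass (−0.60, adjusted p = 0.0524), nor did those of *Mkx* to *Thbs4* (0.55, adjusted p = 0.138), *Mkx* to *Comp* (0.31, adjusted p = 0.368) or *Thbs4* to *Comp* (−0.24, adjusted p = 0.33, exact permutation tests). At the Early stage none of the 10 ratios passed (adjusted p from 0.884 to 0.982, exact permutation tests).

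The Fosl2(Tg) Established mice differed widely among themselves. *Tnmd* spanned 24.2-fold from the lowest to the highest mouse, *Comp* 8.50-fold, *Scx* 8.14-fold, *Thbs4* 7.31-fold and *Mkx* 2.70-fold, against 2.32-, 1.83-, 1.51-, 1.72- and 1.55-fold in WT Established mice. Replicate 5 was the lowest mouse in all 5 genes and replicate 1 the second lowest in all 5. Replicate 5, the male, held 2.80% of the WT Established median for *Tnmd*, 7.91% for *Scx*, 14.9% for *Comp*, 17.1% for *Thbs4* and 42.8% for *Mkx*, resting on 92 reads for *Scx* and 293 for *Tnmd*. Replicate 6 was highest in *Scx*, *Mkx*, *Thbs4* and *Comp* and stood at 64.4% of the WT median for *Scx* and 52.2% for *Tnmd*, but at 116% for *Mkx*, 125% for *Thbs4* and 127% for *Comp*. The order of mice was thus much the same in each gene, while how far they lay under the WT median differed between genes.

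**Figure D3:**
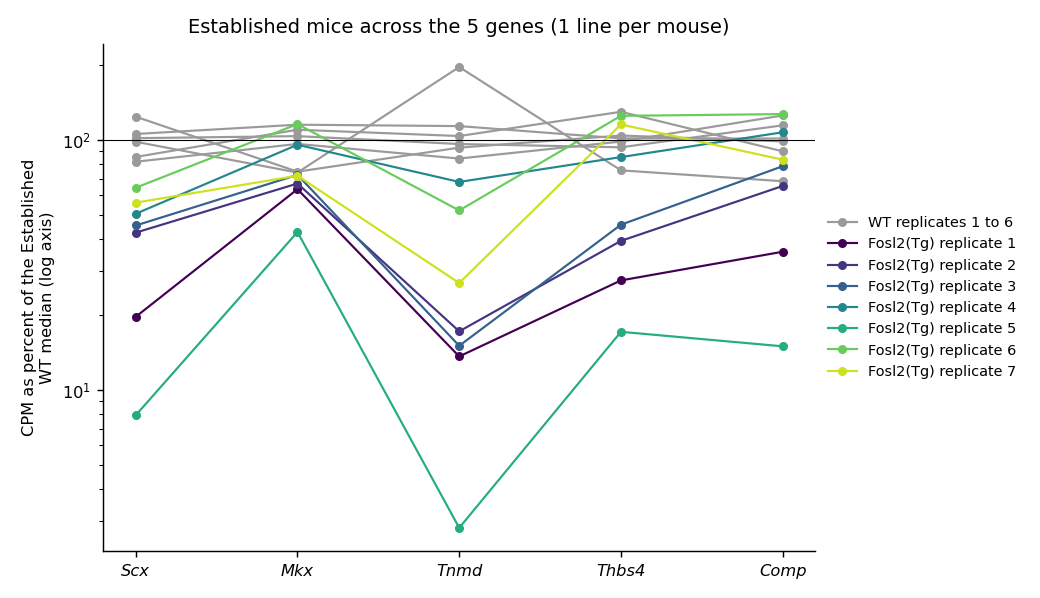
CPM of the 5 genes in each Established mouse as percent of the WT Established median (log axis), with 1 line per mouse. Replicate 5 has the lowest Fosl2(Tg) line throughout, 6 of the 7 Fosl2(Tg) lines are lowest at *Tnmd* (2.80% to 52.2%), replicate 4 is lowest at *Scx* (50.7%, against 67.9% at *Tnmd*), and some lines reach the WT lines at *Mkx*, *Thbs4* and *Comp*.

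Co-variation was measured as the correlation of log2 CPM between members over the mice of a group. In the 7 Fosl2(Tg) Established mice all 10 pairs correlated positively, with Pearson's r from 0.864 (*Scx* and *Mkx*) to 0.985 (*Scx* and *Comp*). Adjusted p lay between 0.00794 and 0.0333 over the 40 correlations of 10 pairs in 4 groups (exact permutation tests, two-sided). Spearman's rho ranged from 0.857 to 1.00 with adjusted p from 0.0159 to 0.0866 (exact permutation tests). By rho only *Scx* with *Thbs4* (0.0159) and *Comp* with *Scx*, *Mkx* and *Thbs4* (0.0278 each) passed. The other pairs did not (adjusted p from 0.054 to 0.0866, exact permutation tests). Without the 2 mice farthest from the median of the gene named first in each pair, r lay between 0.634 and 0.951 over the 5 remaining mice. Without replicate 5 the 10 values lay between 0.652 and 0.950 with a median of 0.830 (n = 6). All pairs share the libraries and their scaling, so all tested genes give the background. Of 13940 other genes, between 4.53% (against *Thbs4*) and 9.58% (against *Comp*) correlated with a member at least as well as the weakest pair of members did, and the median r over all genes lay between 0.04 and 0.07.

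In the other groups positive correlations were not the rule. Median r over the 10 pairs was −0.24 in WT Early (n = 7), −0.13 in Fosl2(Tg) Early (n = 8) and −0.17 in WT Established mice (n = 6), against 0.90 in Fosl2(Tg) Established mice, and 6 of 10 pairs were negative in each of the 3 groups. None of these 30 correlations passed after adjustment, the smallest adjusted p being 0.0505 (exact permutation tests). The difference in co-variation between groups was not tested. *Tnmd* and *Comp* gave the widest contrast, with r = −0.91 in WT Established (n = 6, adjusted p = 0.0694) and 0.94 in Fosl2(Tg) Established mice (n = 7, adjusted p = 0.0127, exact permutation tests). In WT Established mice r of this pair was −0.25 without the 2 mice farthest from the *Tnmd* median. Only 4 mice were left, too few to say what the negative value rested on. In WT Early mice the pair fell into separate clusters. Replicates 1 to 3 had *Comp* at 1255 to 1408 and *Tnmd* at 1289.9 to 1536 CPM, and replicates 4 to 7 had *Comp* at 525 to 776 and *Tnmd* at 1815 to 3347 CPM. Both clusters hold fewer than 6 mice, and no correlation was tested within them. Together with Fosl2(Tg) Early replicate 1 (*Comp* at 1317 CPM), WT Early replicates 1 to 3 also carry the consecutive library numbers 49 to 52, which the labels do not call a batch, while with library number as a linear covariate the Early *Comp* fold change was −0.079 (FDR = 0.869) in place of −0.26.

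With group means removed and all 28 mice pooled, *Thbs4* and *Comp* correlated best (r = 0.816, adjusted p = 0.0003, rho = 0.696, adjusted p = 0.004, 100000 permutations within groups, 10 pairs). For this pair r was 0.691 within the Early and 0.878 within the Established stage, and 0.646 without the 2 mice farthest from the median. *Scx* and *Tnmd* followed (r = 0.699, adjusted p = 0.0245, rho = 0.559, adjusted p = 0.0326, permutation tests), with r = 0.239 within the Early and 0.850 within the Established stage and 0.517 without the 2 farthest mice. The other 8 pooled pairs had r from 0.476 to 0.638 and rho from −0.09 to 0.377. By r all of them passed (adjusted p from 0.0245 to 0.0491) except *Scx* and *Comp* (0.073) and *Tnmd* and *Comp* (0.125, permutation tests). By rho none of them passed (adjusted p from 0.209 to 0.686, permutation tests). Within the Early stage r of these 8 pairs ran from −0.76 to 0.29, beside 0.239 for *Scx* and *Tnmd*. Correlations within a stage were not tested.

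**Figure D4:**
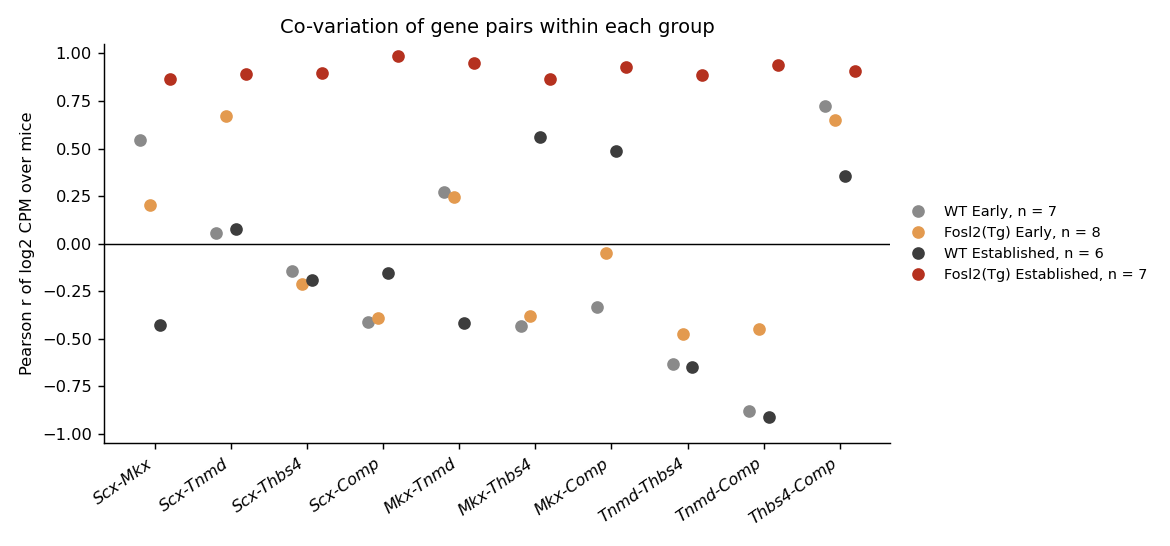
Pearson's r of log2 CPM over mice for each of the 10 gene pairs, with 1 point per group. Fosl2(Tg) Established points lie between 0.864 and 0.985, whereas points of the other groups scatter between −0.91 and 0.72.

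The genes whose levels followed each member most closely were looked up among 13941 genes with a mean of at least 1 CPM in every group, by Pearson's r over the 28 group-centred log2 CPM values. These values describe libraries that share depth and scaling. *Tnmd* was followed by *Kera* (r = 0.935), which encodes the fibril-binding proteoglycan keratocan, then *Cpq* (0.906) and *Ecrg4* (0.905). *Comp* was followed by *Chad* (0.946), which encodes the collagen-binding protein chondroadherin, then *Arhgef40* (0.932) and *Trabd2b* (0.929). *Thbs4* was followed by *C1qtnf5* (0.929), *Fn1* (0.927), which encodes fibronectin, and *Hexa* (0.918). *Scx* went with *Kif26a* (0.893), *Col6a3* (0.882), a collagen VI chain, and *Gm36970* (0.878), and *Mkx* with *Odad2* (0.880), *Arhgef25* (0.879) and *Zc3hav1l* (0.863). The highest mean r over the 5 members belonged to *Thy1* (0.772), which encodes a surface glycoprotein of fibroblasts, followed by *Insc* (0.765), *Phyhip* (0.765), *Ssc5d* (0.764) and *Clec11a* (0.763).

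Of 8 other regulators of tendon development, 1 was called higher and none lower at the Established stage, where 6.51% of all genes tested were called. The median log2 fold change of the regulators was 0.00 beside 0.01 over all genes tested. *Tgif1*, a homeodomain repressor in TGF-beta signalling, ranged from 15.9 to 31.6 CPM in WT and from 28.2 to 54.5 in Fosl2(Tg) mice and rose by 0.62 ± 0.17 (FDR = 0.0433). *Egr1*, a zinc-finger factor induced by mechanical load, was at 0.61 ± 0.35 (FDR = 0.269), *Eya2* at −0.49 ± 0.20 (FDR = 0.136) and *Six2* at −0.39 ± 0.27 (FDR = 0.36). None of the 8 was called by edgeR at the Early stage, and none had an unadjusted p under 0.05.

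Several tendon matrix genes, from a list also chosen with earlier results of these data known, were called lower as *Scx* and *Tnmd* were. Of 23 genes 6 were called lower and 1 higher at the Established stage, where 3.37% of all genes were called lower and 6.51% in all. The median of the 23 genes was −0.54 beside 0.01 over all genes. None of them was called at the Early stage (median 0.06, 3 with an unadjusted p under 0.05, edgeR). *Col1a1*, a chain of type I collagen, ranged from 44271 to 100124 CPM in WT and from 989 to 28261 in Fosl2(Tg) Established mice without overlap (−2.50 ± 0.63, FDR = 0.0356), and *Col1a2*, the other chain, from 28782 to 53691 and from 786 to 19131 CPM (−2.23 ± 0.57, FDR = 0.0367). *Cilp2*, a cartilage intermediate layer protein, fell by 1.82 on the log2 scale (FDR = 0.0371), with 1195 to 2553 CPM in WT and 70.4 to 1520.5 in Fosl2(Tg) mice. *Chad* (−1.90, FDR = 0.0414), *Col11a1* (−1.46, FDR = 0.0483) and *Col12a1* (−0.75, FDR = 0.041) were the other genes called lower. *Cilp*, the paralog of *Cilp2*, went the opposite way, from 1701 to 3948 CPM in WT to 3684 to 4991 in Fosl2(Tg) mice (0.77 ± 0.18, FDR = 0.0268). *Kera*, the gene closest to *Tnmd* in pattern, was at −2.26 ± 0.76 (FDR = 0.0842) and did not pass.

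Among the paralogs of the members *Thbs1* and *Cnmd* were called higher and none lower at the Established stage, and the *Cnmd* call is no support. Over all genes tested 6.51% were called at this stage. *Thbs1*, a trimeric thrombospondin that activates latent TGF-beta, rose from 745 to 1370.5 CPM in WT to 1248 to 3066 in Fosl2(Tg) Established mice (1.11 ± 0.20, FDR = 0.0128). *Thbs2* (0.16 ± 0.25, FDR = 0.702) and *Thbs3* (−0.51 ± 0.21, FDR = 0.141) were not called. *Cnmd*, which encodes chondromodulin, the relative of tenomodulin in cartilage, was called higher at the edge of detection, with 0 to 16 reads per WT and 5 to 31 per Fosl2(Tg) Established library (FDR = 0.0207). It passed the filter on low counts in the Established fit only. There it passed on the Fosl2(Tg) mice, at 0.353 to 0.655 CPM against 0 to 0.223 in WT. Its selection for testing thus drew on the group where it was high.

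Among 11 tested genes of TGF-beta and GDF signalling, the pathway that induces *Scx* in development, 1 was called higher and none lower. Their median was −0.13, and 6.51% of all genes tested were called. *Tgfbr3*, betaglycan, ranged from 540.4 to 1072 CPM in WT and from 767 to 1471 in Fosl2(Tg) mice (0.65 ± 0.18, FDR = 0.0487). The ligand *Tgfb2* (−0.60 ± 0.20, FDR = 0.0807) and the signal transducers *Smad4* (0.25 ± 0.11, FDR = 0.156) and *Smad2* (−0.13 ± 0.06, FDR = 0.172) were not called. At the Early stage none of the signalling genes (2 with an unadjusted p under 0.05) or paralogs (0) was called by edgeR.

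**Figure D5:**
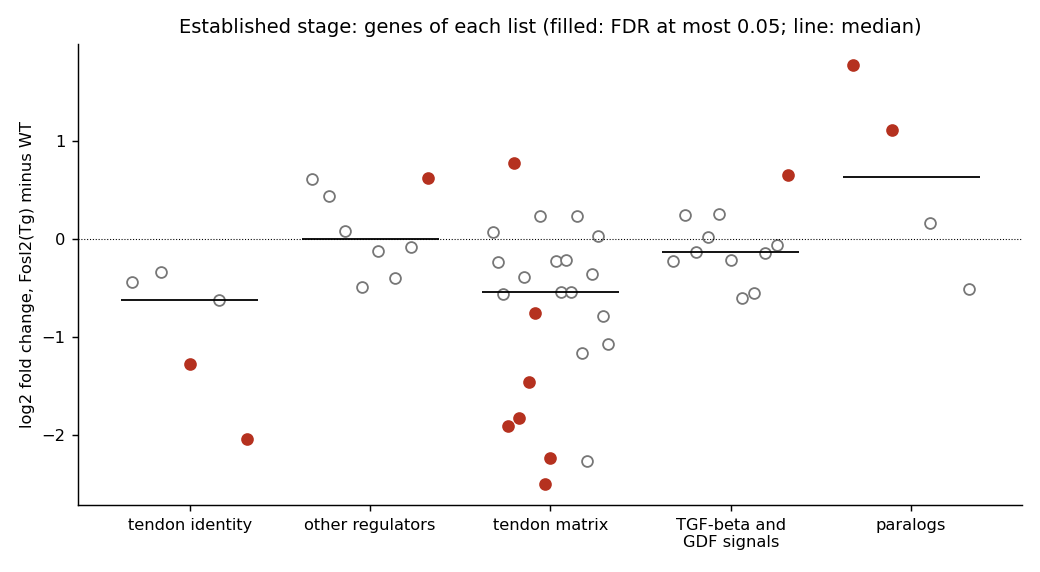
Log2 fold changes, Fosl2(Tg) minus WT, of the genes of each list at the Established stage, with filled points for FDR of at most 0.05 and a line at the list's median. The tendon identity (median −0.62) and tendon matrix genes (−0.54) lie mostly below 0, whereas the regulators (0.00) and signals (−0.13) lie about 0 and the called paralogs above it. Of these paralogs *Cnmd* entered the test only through its Fosl2(Tg) reads.

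Markers of other cell types were read beside the members as summed CPM. Of all genes tested at the Established stage, 6.51% were called and 3.37% were called lower. Cartilage markers (6 genes) gave 38.4 to 64.3 CPM in WT and 5.85 to 41.6 in Fosl2(Tg) Established mice, 2 of 5 tested genes being called lower and 1, *Cnmd*, higher. *Cnmd* had entered the test only through its Fosl2(Tg) reads. Skeletal muscle markers (10 genes) varied from 231 to 53719 CPM in WT and from 147 to 14943 in Fosl2(Tg) Established mice, and none was called by edgeR (2 with an unadjusted p under 0.05). All 10 had negative fold changes, with a median of −1.75 on the log2 scale beside 0.01 over all genes tested. With the muscle level as a covariate *Scx* (−1.33, FDR = 0.034) and *Tnmd* (−2.32, FDR = 0.0266) were called. Macrophage markers (8 genes) gave 505 to 766 and 630.5 to 1014 CPM, with 1 of 8 called higher. All 8 had positive fold changes (median 0.22, 3 with an unadjusted p under 0.05, edgeR). At the Early stage all 8 were negative (median −0.41, 6 with an unadjusted p under 0.05, edgeR) and 0 were called. Erythroid markers (4 genes) gave 8.89 to 18.8 and 9.75 to 117 CPM, none of 3 tested being called (2 with an unadjusted p under 0.05). Schwann cell markers (4 genes) gave 25.6 to 85.4 CPM in WT and 35.9 to 261 in Fosl2(Tg) mice, endothelial markers (6 genes) 19.2 to 78.5 and 19.9 to 62.7 CPM, and sheath and progenitor markers (6 genes) 601 to 1202.5 and 558 to 1102 CPM. Osteoblast, adipocyte and keratinocyte markers (4 genes each) summed to at most 0.618, 0.749 and 3.67 CPM in any Established mouse. The part of the cartilage, macrophage, Schwann cell and erythroid markers in the results above was not tested.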

How the data were processed

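Tail tendon RNA had been depleted of ribosomal RNA and sequenced with 1 library per mouse. The authors mapped reads with STAR to GRCm39 (GENCODE release M26) and counted them per gene with featureCounts. What they deposited are raw counts, not normalized. Strand use and the handling of multi-mapping reads are not given in the sources used here. Groups and replicate numbers came from the labels. Of 25719 identifiers, 25505 were named with GENCODE release M39 on the same assembly.

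Counts were tested with edgeR 4.0.16 in R 4.3.3 (quasi-likelihood F-test, TMM scaling, filterByExpr with minimum count 10 and minimum total 15), within each stage and in 1 fit of 4 groups for the interaction and the stage contrasts, and Benjamini-Hochberg adjustment took in every gene of a fit. Genes were called at an FDR of at most 0.05. CPM used TMM factors over all 28 libraries, and log2 CPM a prior count of 2. Ratios and within-group correlations were tested by exact permutation and pooled correlations with 100000 permutations within groups, all two-sided, with Benjamini-Hochberg adjustment over the family named beside each value. Fits were tested on simulated counts with 200 changed genes.

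Alternatives were DESeq2 1.42.0, which the authors used, RLE or TMMwsp scaling, no filter or a mean of 1 CPM, the replicate number as a block, voom in limma 3.58.1 with sample quality weights, marker genes left out, a muscle covariate, all libraries in 1 fit, females only, sex as a covariate and each library left out. Library totals without scaling, library number as a covariate, the ratios and the within-group tests were added after seeing the data. Same-numbered WT and Fosl2(Tg) mice deviated together in all 7 Early pairs (r from 0.129 to 0.363). In the Established pairs r ran from −0.22 to 0.688 and was negative only for replicate 6. No label says what the numbers pair, and differently numbered mice were not compared. Whether the numbers pair mice was therefore not settled for either stage, and the block was used as an alternative only.

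The members and lists were chosen with earlier results of these data known. Besides the members, the genes named were those called Early and up to 4 with the smallest FDR Established of each list (regulators, matrix, signals, paralogs), and the genes most correlated with a member (3 each) or with all members on average (5). *Col11a1*, *Col12a1*, *Bop1* and *Fosl2* were named beyond this rule, after their values were seen. Figures were drawn with matplotlib.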

Additional observations from a re-analysis of the deposited data

Results flagged for a closer look

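In 2 of the 20 sets formed by 5 genes in 4 groups, the highest mouse stood apart from the rest by Dixon's test at the 95% level, which chance flags in about 1 of 20 sets. *Tnmd* was at 1476 CPM in WT Established replicate 6 against 635 to 857 CPM in the other 5 mice, and this mouse was also the lowest WT Established mouse in *Mkx* (189 CPM), *Thbs4* (3418 CPM) and *Comp* (1026 CPM). Without it the *Tnmd* fold change at the Established stage was −1.81 (FDR = 0.0788). *Comp* was at 1317 CPM in Fosl2(Tg) Early replicate 1 against 580.3 to 847 CPM in the other 7 mice of its group, next to 1255 to 1408 CPM in WT Early replicates 1 to 3, which carry neighbouring library numbers.

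The genotype effect differed between stages for *Scx* (interaction −1.41, FDR = 0.0457) and *Tnmd* (−1.94, FDR = 0.0358), with the fold changes lower in the Established stage. Stage, age and sex cannot be told apart in this difference.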

How the results depend on the processing

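Members called at the Established stage numbered 2, and also 2 under 11 of the other 14 settings. The count was 1 without a filter and 1 with the replicate block (*Scx* FDR = 0.0523 and 0.0643), and 0 with library number as a covariate (FDR = 0.0641 for *Scx* and *Tnmd*). Leaving out single mice gave 0 to 2. For the difference between stages the count was 2 by default, 1 without a filter, 1 with the replicate block (*Scx* FDR = 0.0612), 1 without the Established males, and 0 to 3 with single mice left out. In WT mice the cohorts gave 0 members by default, 1 with DESeq2 and 1 without the Established males (*Tnmd*, FDR = 0.0257 and 0.0432), and 0 to 1 with single mice left out, *Tnmd* being called without Fosl2(Tg) Established replicates 4 or 5 or WT Established replicate 6. In Fosl2(Tg) mice the count was 4 by default, 4 to 5 with single mice left out (*Comp* being called without Fosl2(Tg) Established replicate 5), 5 without the males (*Comp* higher) and 3 with library totals (*Scx* and *Tnmd* lower, *Comp* higher). The block changed no other count of members.

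Some small fold changes turned direction, none of them called. At the Early stage *Tnmd* was at 0.18 and *Thbs4* at −0.050 with limma voom, *Thbs4* at −0.12 with library totals and *Scx* at −0.030 with the muscle covariate. Without single mice Early *Tnmd* ranged from −0.18 to 0.055 and Early *Thbs4* from −0.0100 to 0.14, both turning without WT Early replicate 6 or 7. With library totals *Comp* was at 0.29 for the difference between stages and *Thbs4* at 0.083 between the WT cohorts. The median r of the 10 pooled pairs was 0.612, against −0.16 in the Early stage alone, 0.833 in the Established stage alone and 0.288 by Spearman's rho. The cause of these changes was not tested.

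Over all genes, Established calls numbered 1032, against 2146 with DESeq2, 1984 with voom, 1672 with the muscle covariate, 1663 with all libraries in 1 fit, 560 with females only and 7544 with library totals. Early calls numbered 6, against 23 with DESeq2, 10 with voom and 11 each with the block and with library number. Calls for the difference between stages numbered 1195, against 1793 with DESeq2, 1951 with voom, 725 without the males and 8091 with library totals. Between WT cohorts 935 were called, against 1573 with DESeq2, 2145 with voom, 1407 with the muscle covariate and 2374 with library totals, and between Fosl2(Tg) cohorts 7685, against 12836 with library totals.

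Whether replicate numbers pair the Established mice was not settled, as same-numbered mice correlated from −0.22 to 0.688 and no label gives a pairing. The lowest member count, 92 reads of *Scx*, limits the precision of the lowest Fosl2(Tg) Established mouse, and the number of mice limits every comparison.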
